A study of Mus musculus with 14 samples.

Results

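The genes described here are 9 interferon-stimulated genes, Usp18, Iigp1, Ifi35, Ifi27, Isg15, Ifit1, Ifit3, Irf7 and Igtp, measured in the livers of long-lived dwarf mice and of normal mice at 2 ages. They were taken as every probe set (the group of short probes that reads 1 transcript on an Affymetrix array) that the array's annotation names with 1 of these symbols, which gave 11 probe sets of the 12488 on the array, and 9 genes of the 8252 that have a probe set with a single symbol. The study hybridised total RNA from the liver of 14 mice, 1 mouse to an array. The 4 groups were 4 dwarf mice of 6 months (animals 83, 85, 87 and 89), 4 wild type mice of 6 months (82, 84, 86 and 88), 3 dwarf mice of 22 months (3, 4 and 8) and 3 wild type mice of 22 months (1, 2 and 24). Dwarf mice are Snell mice that carry a mutation in Pit-1 (gene Pou1f1), a transcription factor without which the anterior pituitary lacks the cell types that secrete growth hormone, thyroid-stimulating hormone and prolactin, and the wild type mice are the controls of that line. The mutation acts from development on in the whole animal, and no liver-specific change, hormone replacement or other treatment is given for any group, nor is sex. The animal numbers mark separate mice, so p-values here measure the spread between mice.

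Interferons are signalling proteins released on infection, and they also act at a low tonic level in uninfected tissue. Type I interferons bind a receptor whose Janus kinases activate transcription factors that, with IRF9, bind interferon-stimulated response elements (ISRE) in target genes, whereas interferon-gamma signals mainly to gamma-activated sites (GAS). In the liver, hepatocytes and Kupffer cells both respond. Among the 9 genes, Isg15 encodes a ubiquitin-like protein that is attached to other proteins, and Usp18 encodes the protease that removes it and that also blocks signalling at the type I receptor. Ifit1 binds foreign RNA and Ifit3 is a related protein, and Irf7 is the transcription factor that amplifies type I interferon production. Iigp1 is an immunity-related GTPase that attacks the vacuoles of intracellular parasites, and Igtp is a regulatory member of the same family. Ifi27 is a small mitochondrial protein, and Ifi35 a leucine-zipper protein, both induced by interferon.

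Promoter sequences of 6 of the 9 genes, from 250 bases before to 50 after the start of transcription, were taken from RefSeq on build GRCm38.p6, and 4 are shown because they differ in their matches to the ISRE and the GAS. They were searched for GAAA, any pair of bases and GAAA on both strands, the core of the ISRE, and for TTCNNNGAA, the core of the GAS, which reads the same on both strands. In the sequences every base is in lower case except those within a match. The Isg15 window is chr4:156200769-156201068 on the minus strand, the Ifit1 window is chr19:34640639-34640938 on the plus strand, the Igtp window is chr11:58199306-58199605 on the plus strand and the Ifi35 window is chr11:101448162-101448461 on the plus strand.
Isg15: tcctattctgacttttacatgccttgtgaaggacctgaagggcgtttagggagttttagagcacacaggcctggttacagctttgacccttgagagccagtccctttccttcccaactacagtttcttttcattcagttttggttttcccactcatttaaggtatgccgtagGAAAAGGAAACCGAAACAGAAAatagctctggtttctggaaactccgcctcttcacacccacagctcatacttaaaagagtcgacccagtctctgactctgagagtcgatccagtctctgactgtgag
Ifit1: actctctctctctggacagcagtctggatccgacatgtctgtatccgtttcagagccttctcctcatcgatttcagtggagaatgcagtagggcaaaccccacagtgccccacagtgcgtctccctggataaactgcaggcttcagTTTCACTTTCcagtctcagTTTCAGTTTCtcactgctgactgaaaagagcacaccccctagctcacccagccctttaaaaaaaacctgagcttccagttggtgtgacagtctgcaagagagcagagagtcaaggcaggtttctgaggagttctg
Igtp: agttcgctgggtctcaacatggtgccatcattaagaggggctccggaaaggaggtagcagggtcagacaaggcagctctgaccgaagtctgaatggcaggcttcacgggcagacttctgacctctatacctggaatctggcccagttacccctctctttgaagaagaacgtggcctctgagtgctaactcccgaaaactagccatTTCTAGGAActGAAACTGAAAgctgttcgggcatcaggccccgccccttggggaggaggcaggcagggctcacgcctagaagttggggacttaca
Ifi35: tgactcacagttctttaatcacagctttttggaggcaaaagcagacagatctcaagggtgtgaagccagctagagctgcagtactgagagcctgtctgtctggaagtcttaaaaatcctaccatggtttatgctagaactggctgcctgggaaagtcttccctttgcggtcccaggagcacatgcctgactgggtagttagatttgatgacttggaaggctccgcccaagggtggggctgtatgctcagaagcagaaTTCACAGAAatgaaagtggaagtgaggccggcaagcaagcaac
The capitals mark 3 overlapping ISRE matches in Isg15, from position -78 to position -57 relative to the start, and 2 separate ISRE matches in Ifit1, both read on the opposite strand. In Igtp they mark 1 GAS match followed by 1 ISRE match, within 45 bases before the start, and in Ifi35 a single GAS match just after the start. Ifit3 also held 2 ISRE matches, with the same letters as those of Ifit1, and the Irf7 window held neither motif. Thus 4 of the 6 windows held an ISRE match and 2 held a GAS match, and of all 32851 RefSeq promoter windows of this length 3.44% held an ISRE match and 8.30% a GAS match. A match describes letters and shows no binding, and no match says only that these letters are not in the window. Usp18, Ifi27 and Iigp1 are named without a sequence.

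**Figure D1:**
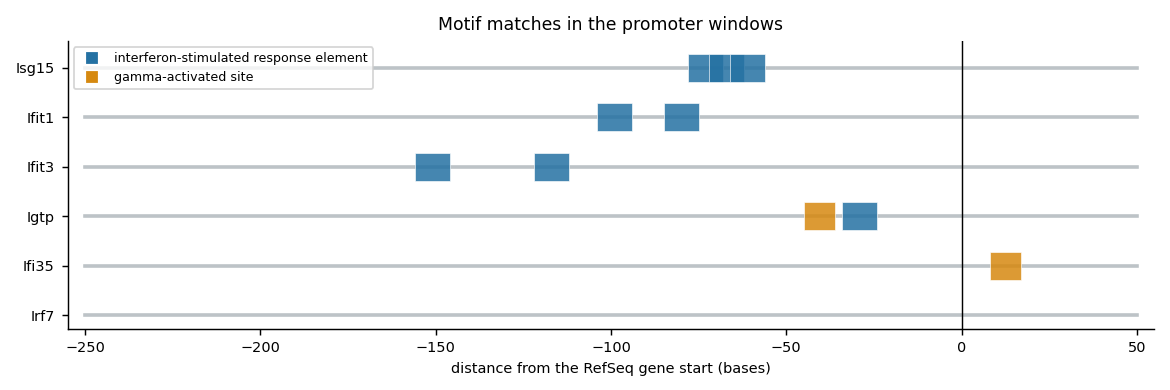
Positions of ISRE and GAS motif matches in the promoter windows of 6 of the 9 genes, as bases from the start of transcription, 1 row per gene. Isg15 has 3 overlapping ISRE matches, Ifit1 and Ifit3 have 2 each, Igtp has 1 of each motif, Ifi35 has 1 GAS match and Irf7 has none.

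The arrays were comparable in overall scaling and the tissue label held, while 3 technical measures differed between groups. Each array's mean signal after removing 2% of probe sets at each end lay between 500.357 and 500.437, the scaling that the deposited values carry. The summed signal of 7 hepatocyte markers (albumin, Apoa1 and others) ranged from 111274 to 215543, and none was near the floor described next. Signal below the pooled 25th percentile, 54.9, was set to that floor, and a probe set was tested where it exceeded the pooled median, 184.8, on at least 3 arrays, which 7227 probe sets did. Of the 11 probe sets of the interferon-stimulated genes 9 were tested, covering 7 genes, and those of Ifit1 and Ifit3 were too dim. The 25th percentile of the signal was 56.5 to 74.1 in 6-month dwarf livers against 48.9 to 56 in 6-month wild type livers. The ratio of the 3' to the 5' control probe sets of beta-actin, which goes up as RNA degrades, was 2.29 to 2.69 in 6-month dwarf livers and 1.16 to 2.38 in 6-month wild type livers, against 1.25 to 1.57 in 22-month dwarf livers and 1.52 to 1.74 in 22-month wild type livers. The signal of the 18S ribosomal RNA controls was 211 to 436 in 22-month dwarf livers and 68.2 to 138 in 6-month dwarf livers. It was 184 to 1147 in 22-month wild type livers and 63.5 to 182 in 6-month wild type livers.

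**Figure D2:**
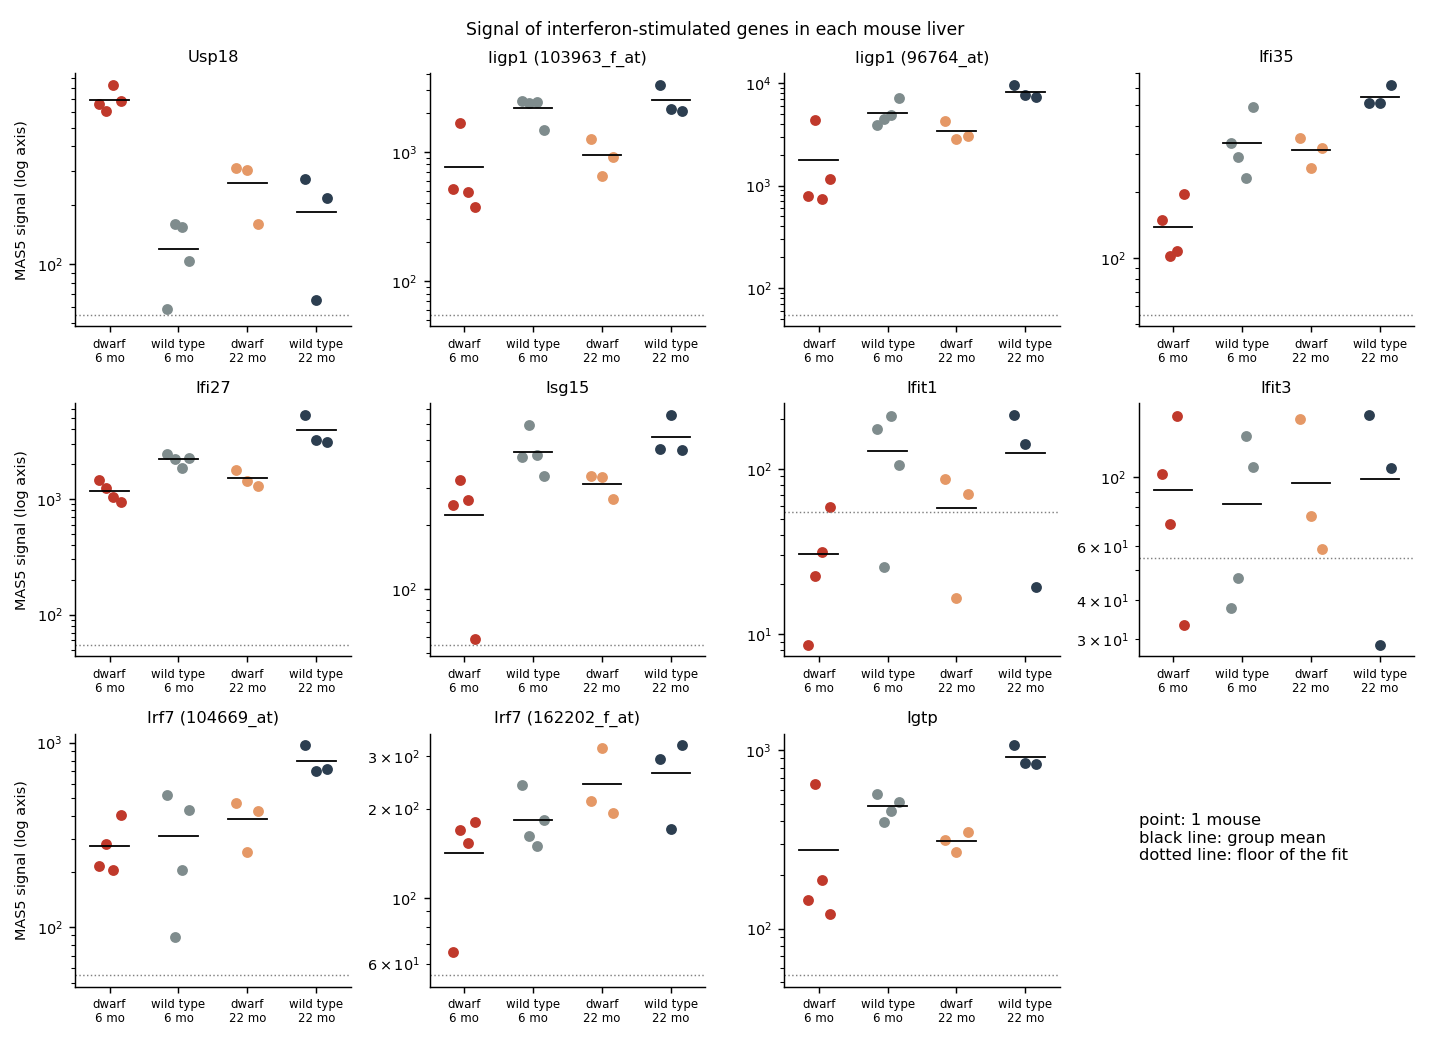
MAS5 signal of each of the 11 probe sets in each mouse, on a log axis, with 1 panel per probe set, 1 point per mouse, a black line at the group mean and a dotted line at the floor of 54.9, where the panel reaches it (labels with _f mark shared-probe sets). Usp18 is highest in the 4 dwarf mice of 6 months, Ifi35 and Ifi27 are lower in dwarf than in wild type mice of the same age, and Ifit1 and Ifit3 have 6 and 4 of 14 values at or under the floor.

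At 6 months the dwarf liver held more Usp18 RNA and less Iigp1, Ifi35 and Ifi27 RNA than the wild type liver. With 1 limma fit over all 4 groups and Benjamini-Hochberg adjustment over the 7227 tested probe sets, 5 of the 9 probe sets passed an adjusted p of 0.05, 1 higher and 4 lower in dwarf mice. Of all tested probe sets 13.3% passed, 6.37% higher and 6.95% lower. Scaling each array to a common median made 18.2% of all calls higher in dwarf mice, where the deposited scaling gave 47.8%, and called 1 of the 9 higher and 6 lower. The median log2 difference, dwarf minus wild type, was -1.16 over the 9 probe sets and 0.10 over all that were tested. In bulk liver, fewer cells of a type and less RNA per cell cannot be told apart.

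Usp18 (chromosome 6), the ISG15 protease, was the 1 probe set called higher in dwarf livers at this age. Its signal was 660.8, 605.9, 828.5 and 679.7 in 6-month dwarf livers, against 58.8, 160.1, 154.7 and 103.6 in 6-month wild type livers. The groups did not overlap, and the lowest dwarf value was several times the highest wild type value. Usp18 rose 6.22-fold in dwarf mice, a log2 difference of 2.64 ± 0.41 (SE, n = 4 each, limma adjusted p = 0.000467). At 22 months the signal was 310.6, 304.1 and 160.7 in dwarf livers, against 271.9, 65.4 and 217.5 in wild type livers. These overlap, and the log2 difference of 0.66 ± 0.47 (SE, n = 3 each) did not pass (limma adjusted p = 0.678), with a 95% interval from -0.35 to 1.67. The test of the change in the genotype difference with age gave -1.98 ± 0.63 for Usp18 (SE, limma adjusted p = 0.137), so that a smaller difference at 22 months was not established. It passed without wild type animal 2 of 22 months, which has the lowest Usp18 signal in its group (-2.61, limma adjusted p = 0.0171).

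Iigp1, an interferon-gamma-inducible GTPase on chromosome 18, was read by 2 probe sets, and 1 dwarf mouse differed from the rest on both. On the first, here called the plain set, the signal was 791.0, 4383.5, 739.7 and 1164.4 in 6-month dwarf livers, against 3897.4, 4429.7, 4836.3 and 7176.5 in 6-month wild type livers. On the other, here called the shared-probe set because its suffix marks probes common to related transcripts, it was 518.8, 1682.2, 489.2 and 375.3 in 6-month dwarf livers, against 2499.3, 2386.2, 2429.9 and 1491.2 in 6-month wild type livers. Dwarf animal 85 lay within the wild type range on both sets and the other 3 dwarf mice lay below every wild type mouse. Iigp1 fell 3.76-fold on the plain set (log2 difference -1.91 ± 0.41, SE, limma adjusted p = 0.00578) and 3.41-fold on the shared-probe set (-1.77 ± 0.37, SE, limma adjusted p = 0.00459), n = 4 each. The sets disagreed on wild type animal 88, which was the highest of its group on the plain set and the lowest on the shared-probe set. At 22 months the plain set read 4248.9, 2827.1 and 3075.0 in dwarf livers, against 9646.3, 7732.9 and 7283.7 in wild type livers. On the shared-probe set the 22-month signal was 1251.5, 651.6 and 917.7 in dwarf livers, against 3317.3, 2146.2 and 2061.9 in wild type livers. The groups were apart on both sets. The log2 differences of -1.29 ± 0.47 on the plain set and -1.43 ± 0.42 on the shared-probe set (SE, n = 3 each) did not pass in the fit over 4 groups (limma adjusted p = 0.202 and 0.0908). Iigp1 passed on both sets in the fit of the 22-month arrays alone (limma adjusted p = 0.00721 and 0.0262) and in the fit without dwarf animal 85 of 6 months, which lowers the spread shared by the groups (0.00462 and 0.00524). In all, the 22-month difference passed in only 2 of 28 fits on the plain set and 4 of 28 on the shared-probe set.

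Igtp, a second immunity-related GTPase (chromosome 11), had the same mouse apart. Its signal was 144.4, 650.1, 188.0 and 120.2 in 6-month dwarf livers, against 571.1, 395.0, 458.7 and 513.0 in 6-month wild type livers. Animal 85 was above all 4 wild type mice and the other 3 dwarf mice were below them. The log2 difference was -1.16 ± 0.38 (SE, n = 4 each, limma adjusted p = 0.0523), which did not pass. It was -1.69 without animal 85 (limma adjusted p = 5.45e-05). At 22 months the signal was 315.8, 268.7 and 350.0 in dwarf livers, against 1069.1, 853.9 and 838.5 in wild type livers. The groups were well apart, at means of 312 ± 40.8 in dwarf mice and 921 ± 129 in wild type mice (SD, n = 3 each). The log2 difference of -1.56 ± 0.43 (SE) did not pass in the fit over 4 groups (limma adjusted p = 0.0691). Igtp passed in the fit of the 22-month arrays alone (limma adjusted p = 0.00221), without dwarf animal 85 (0.000479) and without dwarf animal 89 of 6 months (0.0473). In all, the 22-month difference of Igtp passed in only 4 of 28 fits.

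**Figure D3:**
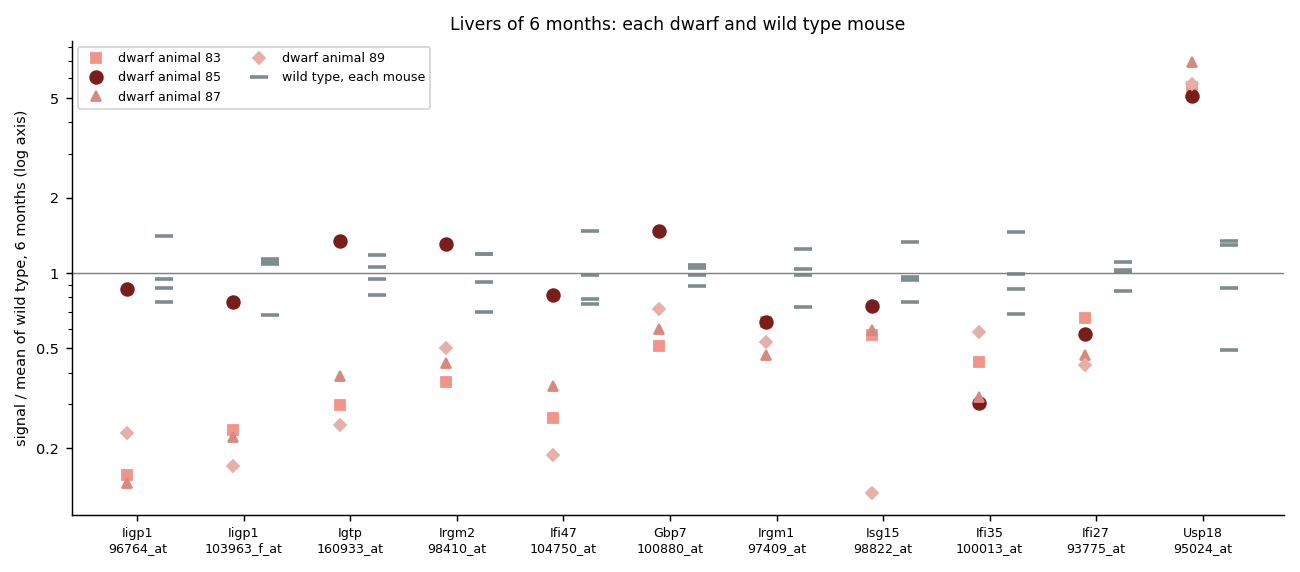
Signal of interferon-stimulated genes and related GTPases in each of the 4 dwarf mice (symbols) and 4 wild type mice (grey dashes) of 6 months, divided by the mean of the wild type mice, on a log axis where 1 is that mean. Animal 85 (large dark circle) lies within or above the wild type values for both Iigp1 sets, Igtp, Irgm2, Ifi47 and Gbp7, and below them for Irgm1, Isg15, Ifi35 and Ifi27.

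Ifi35 (chromosome 11) and Ifi27 (chromosome 12) were lower in dwarf livers, with dwarf animal 85 below every wild type mouse of its age. Ifi35 signal was 148.9, 102.1, 107.8 and 195.3 in 6-month dwarf livers, against 334.5, 290.8, 231.5 and 490.5 in 6-month wild type livers. The groups did not overlap, and Ifi35 fell 2.42-fold (log2 difference -1.28 ± 0.25, SE, n = 4 each, limma adjusted p = 0.00351). At 22 months it was 355.6, 257.8 and 320.1 in dwarf livers, against 512.1, 510.9 and 621.4 in wild type livers. These groups did not overlap either, yet the log2 difference of -0.82 ± 0.29 (SE, n = 3 each) did not pass (limma adjusted p = 0.184). Ifi27 signal was 1442.7, 1246.7, 1027.0 and 939.7 in 6-month dwarf livers, against 2430.1, 2205.6, 1860.6 and 2257.8 in 6-month wild type livers. At 22 months Ifi27 signal was 1786.1, 1435.8 and 1282.1 in dwarf livers, against 5297.1, 3250.5 and 3117.7 in wild type livers. At both ages every dwarf mouse was below every wild type mouse of its age, and the highest Ifi27 value came from wild type animal 1 of 22 months. Ifi27 fell 1.90-fold at 6 months (log2 difference -0.92 ± 0.19, SE, n = 4 each, limma adjusted p = 0.00367) and 2.54-fold at 22 months (-1.34 ± 0.21, SE, n = 3 each, limma adjusted p = 0.00123).

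Isg15 (chromosome 4), the ubiquitin-like modifier that Usp18 removes, had lower values in dwarf mice and missed the threshold. Its signal was 249.8, 326.2, 262.7 and 58.7 in 6-month dwarf livers, against 417.0, 587.7, 428.3 and 339.5 in 6-month wild type livers. The groups were apart by a small margin, and dwarf animal 89 was near the floor. The log2 difference was -1.21 ± 0.40 (SE, n = 4 each, limma adjusted p = 0.0575), with a 95% interval from -2.06 to -0.36, and Isg15 passed without dwarf animal 85 (-1.47, limma adjusted p = 0.0294). It also passed when each array was scaled to a common median (-1.40, limma adjusted p = 0.0254). Isg15 passed at 6 months in 5 of 27 fits. Without dwarf animal 89 the log2 difference was -0.65 and did not pass. At 22 months the signal was 339.2, 335.8 and 265.7 in dwarf livers, against 456.8, 658.4 and 449.3 in wild type livers. The groups did not overlap, and the log2 difference of -0.72 ± 0.46 (SE, n = 3 each) did not pass (limma adjusted p = 0.601).

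Irf7 (chromosome 7), the interferon amplifier, showed no genotype difference beyond the spread at 6 months. It too had a plain and a shared-probe set, and on the plain set its signal was 213.7, 282.1, 204.6 and 405.4 in 6-month dwarf livers, against 522.6, 88.3, 202.6 and 433.8 in 6-month wild type livers. The wild type mice alone spanned the dwarf range, and the log2 difference was 0.08 ± 0.43 (SE, n = 4 each, limma adjusted p = 0.924), with a 95% interval from -0.84 to 0.99 and a sign that turned under quantile normalization (-0.08) and under scaling to a common median (-0.12). At 22 months the set read 470.6, 256.2 and 424.4 in dwarf livers, against 969.7, 702.3 and 719.6 in wild type livers. The groups were apart, and the log2 difference of -1.09 ± 0.50 (SE, n = 3 each) did not pass (limma adjusted p = 0.375). The shared-probe set of Irf7 gave log2 differences of -0.45 ± 0.34 at 6 months and -0.11 ± 0.39 at 22 months (SE), neither of which passed (limma adjusted p = 0.400 and 0.974). Its values overlapped at both ages, at 65.5 to 180.7 in dwarf livers against 149.4 to 240.3 in wild type livers at 6 months and 192.9 to 319.2 against 170.4 to 327.3 at 22 months.

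Ifit1 and Ifit3 (chromosome 19), both encoded in the Ifit gene cluster, were too dim to test. Ifit1 signal was 8.6, 22.5, 31.3 and 58.9 in 6-month dwarf livers, against 174.0, 25.3, 210.3 and 105.0 in 6-month wild type livers, and 86.9, 16.6 and 70.8 in 22-month dwarf livers, against 212.4, 142.0 and 19.2 in 22-month wild type livers. Of its 14 values 6 were at or under the floor, which limits what can be read from them. Ifit3 signal was 33.3 to 157.5 in 6-month dwarf livers against 37.7 to 135.7 in 6-month wild type livers, and 58.6 to 154.7 in 22-month dwarf livers against 28.7 to 159.3 in 22-month wild type livers. These ranges overlapped widely. With no filter on dim probe sets the 6-month log2 difference was -1.11 ± 0.45 for Ifit1 and 0.13 ± 0.48 for Ifit3 (SE), and neither passed (limma adjusted p = 0.187 and 0.974).

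**Figure D4:**
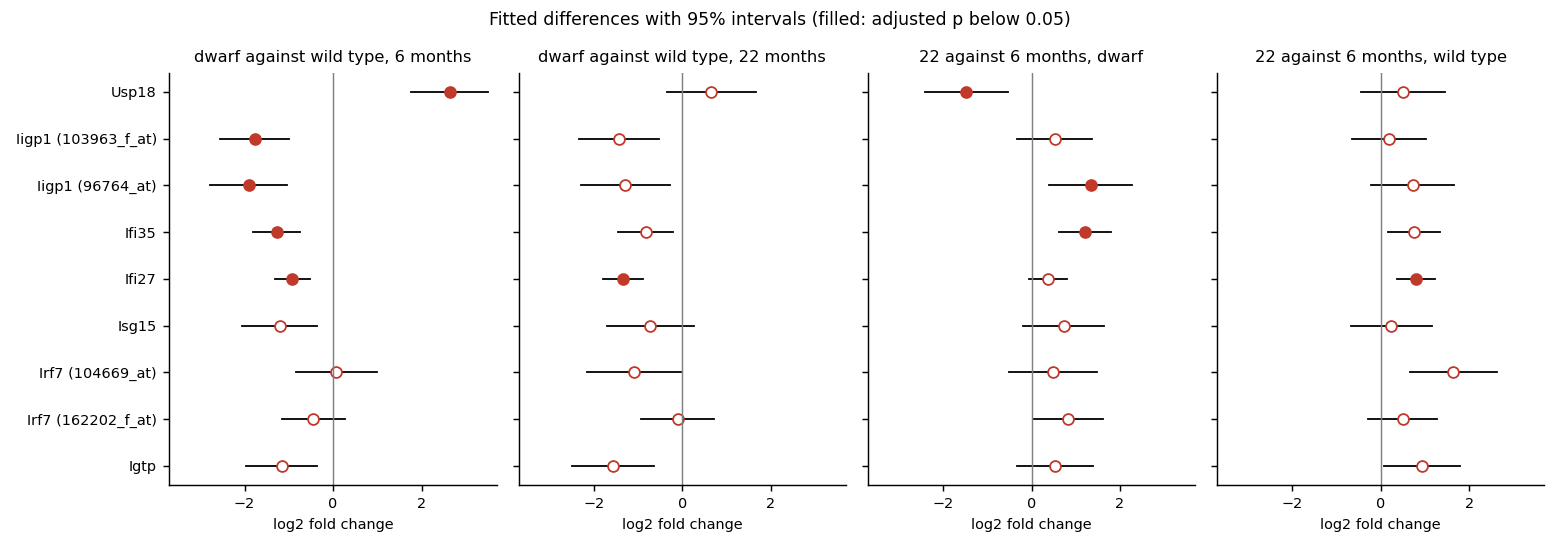
Log2 differences of the 9 tested probe sets (1 row each) for dwarf against wild type mice at 6 and at 22 months and for 22 against 6 months in dwarf and in wild type mice, with 95% intervals from the limma fit and filled points where the adjusted p passed. At 6 months Usp18 is filled above 0 and both Iigp1 sets, Ifi35 and Ifi27 below 0, at 22 months only Ifi27 is filled, and for age 3 points are filled in dwarf and 1 in wild type mice.

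At 22 months Ifi27 was lower in dwarf livers in the test, while most of the other genes were lower in every dwarf mouse without passing it. In the limma fit 1 of the 9 probe sets passed, Ifi27, against 2.93% of all tested probe sets (1.37% higher and 1.56% lower). An unadjusted limma p under 0.05 was found for 6 of the 9, a count for which no share of all tested probe sets was taken. The 3 dwarf values lay below all 3 wild type values in 7 of the 9 (both Iigp1 sets, Igtp, Ifi35, Ifi27, Isg15 and the plain set of Irf7), against 11.5% of all tested probe sets. At 6 months 3 of the 9 were apart in this direction (Ifi35, Ifi27 and Isg15), against 7.80% of all, and Usp18 was apart in the other, which 9.31% of all were. The median log2 difference at 22 months was -1.09 over the 9 probe sets and 0.01 over all tested. A fit of the 22-month arrays alone called 4 of the 9, adding both Iigp1 sets and Igtp to Ifi27.

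Averaged over the ages, 6 of the 9 probe sets passed, 1 higher and 5 lower in dwarf mice, against 10.3% of all tested probe sets, of which 4.65% were higher and 5.62% lower. Usp18 was higher (log2 difference 1.65 ± 0.31, SE, limma adjusted p = 0.00244). Ifi27 was lower (-1.13 ± 0.14, SE, limma adjusted p = 5.1e-05). Also lower were Ifi35 (-1.05), Igtp (-1.36) and Iigp1 (-1.60 on both sets), with limma adjusted p values from 0.00119 to 0.00525. Isg15 did not pass (-0.96 ± 0.31, SE, limma adjusted p = 0.0575). The 2 Irf7 sets did not pass either. No probe set passed the test for a genotype difference that changed with age, which 2.19% of all tested probe sets passed in limma (1.54% positive and 0.650% negative), and 1 of the 9, Usp18, had an unadjusted p under 0.05.

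The order of the mean signals was similar for the genes other than Usp18. On 8 of the 9 tested probe sets the mean signal was lowest in 6-month dwarf livers and highest in 22-month wild type livers. On the log2 scale of the fit this held for 7, because the plain set of Irf7 had a 6-month difference of 0.08. Ifi35 averaged 139 ± 43.2 in 6-month dwarf livers, 311 ± 49.5 in 22-month dwarf livers, 337 ± 111 in 6-month wild type livers and 548 ± 63.5 in 22-month wild type livers (SD, n = 4, 3, 4 and 3). Its 2 middle groups, 22-month dwarf and 6-month wild type mice, overlapped and differed by less than their SDs. Ifi27 averaged 1164 ± 226, 1501 ± 258, 2189 ± 239 and 3888 ± 1222 in the same groups (SD), and there the 2 dwarf groups overlapped. Irf7 on both sets had 6-month wild type mice below 22-month dwarf mice. Usp18 had a different order, highest in 6-month dwarf and lowest in 6-month wild type livers. It averaged 694 ± 95.1 in 6-month dwarf livers, 258 ± 84.7 in 22-month dwarf livers, 185 ± 107 in 22-month wild type livers and 119 ± 47.7 in 6-month wild type livers (SD). The 22-month wild type mice overlapped both neighbouring groups, and the lowest 22-month dwarf value (160.7) lay just above the highest 6-month wild type value (160.1).

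The age calls were fewer than the genotype calls at 6 months and were lost under more alternatives. In dwarf livers 3 of the 9 probe sets passed, 2 higher and 1 lower at 22 than at 6 months, against 16.5% of all tested probe sets (7.94% higher and 8.57% lower). Ifi35 rose 2.31-fold with age in dwarf livers (log2 difference 1.21 ± 0.27, SE, limma adjusted p = 0.00964) and Iigp1 on the plain set rose 2.53-fold (1.34 ± 0.44, SE, limma adjusted p = 0.0495). Usp18 fell 2.78-fold (log2 difference -1.48 ± 0.44, SE, limma adjusted p = 0.0345), and its 22-month dwarf values lay below all its 6-month dwarf values. The 18S signal and the beta-actin ratio given above also separated the 22-month from the 6-month dwarf arrays. With the 18S signal as a covariate the log2 differences were 0.90 for Ifi35, 1.43 for Iigp1 and -0.60 for Usp18. With the 3' to 5' ratio, taken as the mean of the log2 ratios of Gapdh and beta-actin, they were 0.76, 0.83 and -0.79. None passed in either fit. The Iigp1 call was lost in 21 of 27 alternatives and the Usp18 call in 11 of 27, and leaving out dwarf animal 3 of 22 months ended all 3 calls (limma adjusted p = 0.0667 for Usp18, 0.171 for Iigp1 and 0.0506 for Ifi35). The Usp18 call also ended without dwarf animal 4 or 8 of 22 months or dwarf animal 85, 87 or 89 of 6 months. The Iigp1 call held without wild type animal 88 or dwarf animal 85 and ended without any other single mouse.

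In wild type livers 1 of the 9 probe sets passed for age, against 2.49% of all tested probe sets (1.45% higher and 1.04% lower). Ifi27 rose 1.73-fold at 22 months (log2 difference 0.79 ± 0.20, SE, limma adjusted p = 0.0472), and this call was lost in 18 of 27 alternatives. The most marked of these was the fit without wild type animal 1 of 22 months, where the Ifi27 difference was 0.55 (limma adjusted p = 0.199). Of the other 13 fits that left out 1 mouse, 3 kept the call, those without wild type animal 88 and without dwarf animal 83 or 89, all of 6 months. The 18S signal given above was also higher on every 22-month than on every 6-month wild type array. The Ifi27 call ended with the 18S signal or the 3' to 5' ratio as a covariate. With the 18S covariate 9 of all tested probe sets passed for age in wild type livers, against 180 without it. Irf7 on the plain set had the largest age difference of the 9 probe sets in wild type livers and did not pass (1.64 ± 0.47, SE, limma adjusted p = 0.0753), although its 3 values at 22 months lay above all 4 at 6 months. It passed without wild type animal 82 of 6 months (limma adjusted p = 0.0400) and without wild type animal 88 (0.0304). In all, 5 of the 9 had wild type values at 22 months above every value at 6 months (Ifi27, Ifi35, Igtp, Iigp1 and Irf7 on their plain sets), against 8.12% of all tested probe sets, and none lay below, against 7.73%. In dwarf livers 2 of the 9 did so, Ifi35 and Irf7 on the shared-probe set, against 12.6% of all, and Usp18 alone lay below, against 16.4%. The median log2 difference, 22 minus 6 months, was 0.72 over the 9 probe sets in wild type livers and 0.53 in dwarf livers, and over all tested probe sets it was -0.02 and -0.09.

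Genes that encode the interferons, their receptors and the STAT and IRF factors mostly did not pass the genotype tests. The same held for most of all tested probe sets. Of all tested probe sets 13.3% passed at 6 months (6.37% higher and 6.95% lower), 2.93% at 22 months and 10.3% over both ages. Of 9 receptor and Janus kinase genes listed, 8 were tested and none passed between genotypes at either age in limma, with 1 of the 8 at an unadjusted p under 0.05 at each age. For example Ifnar1, a chain of the type I receptor, had a log2 difference of -0.13 ± 0.28 at 6 months (SE, limma adjusted p = 0.793). In dwarf livers 2 of the 8 passed for age, against 16.5% of all tested probe sets (7.94% higher and 8.57% lower). Ifngr2, a chain of the interferon-gamma receptor, rose (1.04, limma adjusted p = 0.00789) and Il10rb, shared with the interleukin-10 receptor, fell (-0.70, limma adjusted p = 0.0247). Neither passed with the 18S signal or the 3' to 5' ratio as a covariate, where Ifngr2 had 1.14 and 1.20 and Il10rb -0.50 and -0.18. Il10rb was also lost without dwarf animal 3, 4 or 8 of 22 months or dwarf animal 85 or 87 of 6 months. Of 4 tested interferon ligands 1 passed, the alpha interferon gene Ifnab, which was higher in 6-month dwarf livers (0.73 ± 0.19, SE, limma adjusted p = 0.0190). Its probe set carries the suffix of shared probes, and the call held in 23 of 27 fits. Of 6 tested STAT and IRF genes 1 passed at 6 months: Stat3, which mainly transmits cytokines of the interleukin-6 family, was higher in dwarf livers (0.53 ± 0.15, SE, limma adjusted p = 0.0286), and it fell with age in dwarf livers (-0.63, limma adjusted p = 0.0174). The 6-month Stat3 call held in 20 of 28 fits. It was lost with a common median (0.33, limma adjusted p = 0.180) and without wild type animal 84, 86 or 88 or dwarf animal 87 or 89. The Stat3 age call was lost with either covariate and without dwarf animal 3 or 4 of 22 months. Irf9, the DNA-binding part of the complex that type I interferons activate, had -0.36 ± 0.20 at 6 months (SE, limma adjusted p = 0.250). Of 10 tested negative regulators none passed at either age, with 1 at 6 months and 2 at 22 months at an unadjusted p under 0.05 in limma. Socs3, a cytokine-signalling suppressor, was lower in dwarf mice over both ages (-1.44 ± 0.40, SE, limma adjusted p = 0.0289), a call that held in 16 of 26 fits and was lost in 7 of the 14 fits that left out 1 mouse (limma adjusted p up to 0.0914). The Socs3 probe set carries the suffix of shared probes. Its signal was under the floor in 1 wild type mouse of 6 months (20.6) and 1 dwarf mouse of 22 months (30.7). Of 4 tested sensors and adaptors 1 passed at 6 months, the RNA sensor Ifih1, which was lower in dwarf livers (-0.73 ± 0.16, SE, limma adjusted p = 0.00681).

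Some of the other immunity-related GTPases and guanylate-binding proteins were lower in dwarf livers. Of 13 listed, 5 were tested, and 2 passed at 6 months, 2 at 22 months and 4 over both ages, all lower, against 6.95%, 1.56% and 5.62% of all tested probe sets called lower. The list's median log2 difference was -0.77 at 6 months and -1.26 at 22 months. Ifi47 signal was 71.3, 221.0, 96.0 and 50.7 in 6-month dwarf livers, against 399.1, 203.7, 265.0 and 213.5 in 6-month wild type livers. At 22 months it was 109.7, 187.7 and 205.0 in dwarf livers, against 671.4, 860.0 and 538.5 in wild type livers. Ifi47, a GTPase of the same family as Igtp, was apart between the genotypes at 22 months and overlapped through dwarf animal 85 at 6 months. It fell 2.73-fold at 6 months (log2 difference -1.45 ± 0.38, SE, limma adjusted p = 0.0186) and 4.19-fold at 22 months (-2.07 ± 0.44, SE, limma adjusted p = 0.0132). Irgm1, a regulatory GTPase of the family, fell at 6 months (-0.80 ± 0.21, SE, limma adjusted p = 0.0200), and Gbp7, a guanylate-binding protein, fell at 22 months (-1.56 ± 0.36, SE, limma adjusted p = 0.0263). The Gbp7 call held in 21 of 27 fits and was lost without wild type animal 1 or 24 or dwarf animal 4 or 8, all of 22 months (limma adjusted p up to 0.123). The Ifi47 calls held in 23 of 28 fits at 6 months and 25 of 28 at 22 months, and that of Irgm1 in 24 of 27. Irgm2 was lower over both ages (-1.02 ± 0.23, SE, limma adjusted p = 0.00934).

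Of the antigen processing genes, some were lower in dwarf mice when both ages were averaged. Of 11 tested interferon-gamma-induced chemokine and antigen processing genes none passed at 6 months in limma, with 4 at an unadjusted p under 0.05. At 22 months 1 passed and over both ages 5 passed, all lower, against 1.56% and 5.62% of all tested probe sets called lower. Psmb10, a subunit of the immunoproteasome, had 726.8, 742.9 and 418.7 in 22-month dwarf livers, against 1463.9, 1248.7 and 1383.9 in 22-month wild type livers. These were well apart (log2 difference -1.16 ± 0.27, SE, n = 3 each, limma adjusted p = 0.0249), a call that held in 23 of 28 fits. The subunits Psmb8 (-1.14) and Psmb9 (-1.25) and the peptide-loading protein Tapbp (-0.65) were lower over both ages (limma adjusted p = 0.00885, 0.0269 and 0.00637), and the Psmb9 call held in 22 of 27 fits. With age, 2 of the 11 were called higher in wild type livers, against 1.45% of all tested probe sets. Psme1, a proteasome activator subunit, rose (0.92 ± 0.17, SE, limma adjusted p = 0.0117), a call that held in 26 of 28 fits (limma adjusted p up to 0.350). Tapbp rose too (0.86 ± 0.20, SE, limma adjusted p = 0.0352). Psme1 also rose with age in dwarf livers (0.64 ± 0.17, SE, limma adjusted p = 0.0209). It did not pass there with the 18S signal (0.51) or the 3' to 5' ratio (0.46) as a covariate. The Tapbp age call held in 16 of 28 fits and was lost without any 1 of the 3 wild type mice of 22 months and without wild type animal 84 or 86 of 6 months (limma adjusted p up to 0.147). Of 14 tested other type I interferon-stimulated genes 1 passed at each age, lower in dwarf mice. The median log2 difference of this list was -0.04 at 6 months, -0.31 at 22 months and -0.16 over both ages. Of all tested probe sets 6.95% were called lower at 6 months and 1.56% at 22 months. The 1 gene was Ly6e, a membrane protein read by a probe set with the suffix of shared probes. Ly6e fell 2.23-fold at 6 months (-1.16 ± 0.14, SE, limma adjusted p = 6.52e-05) and 1.99-fold at 22 months (-0.99 ± 0.17, SE, limma adjusted p = 0.00197). In dwarf livers Ly6e rose with age (0.60 ± 0.16, SE, limma adjusted p = 0.0185), a call that held in 23 of 28 fits. Over both ages 2 of the 14 passed, both lower, against 5.62% of all tested probe sets. These were Ly6e and Ifitm3 (-0.47 ± 0.13, SE, limma adjusted p = 0.0320), and the Ifitm3 call held in 15 of 27 fits. Of 3 tested ISG15 conjugation genes none passed at either age, with 1 at an unadjusted p under 0.05 at each age in limma, and Uba7, the enzyme that activates Isg15, was lower over both ages (-0.64 ± 0.17, SE, limma adjusted p = 0.0205), which held in 24 of 26 fits.

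**Figure D5:**
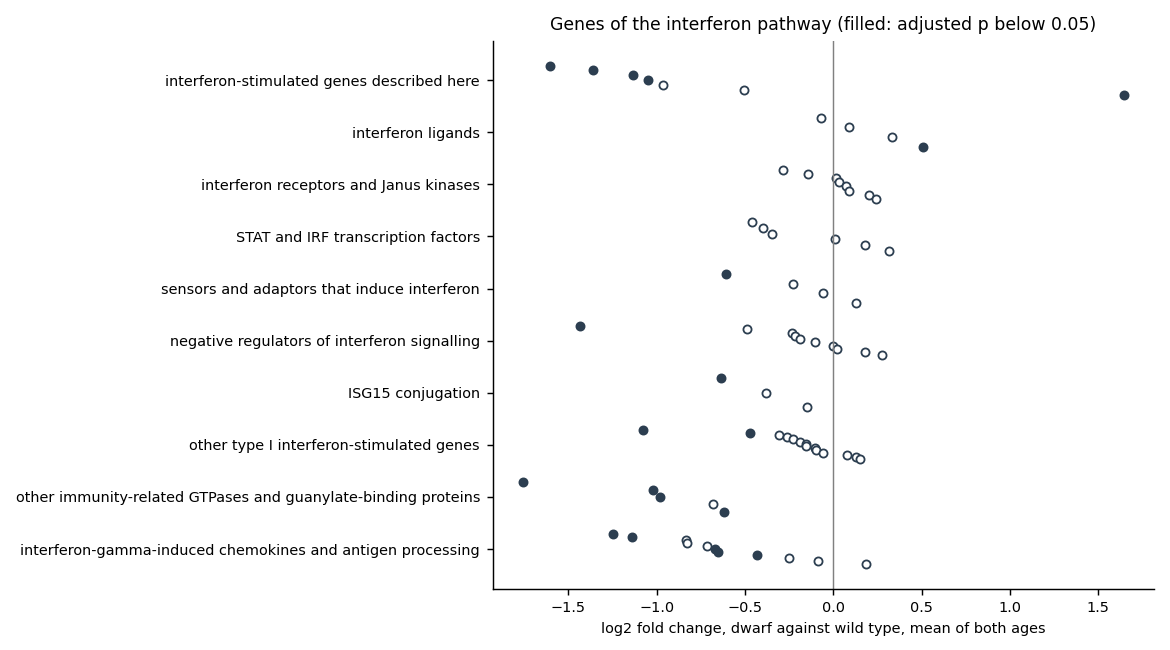
Log2 difference, dwarf against wild type, averaged over both ages, for each tested gene of the interferon pathway lists (rows), 1 point per gene, filled where the limma adjusted p passed. Of the 5 GTPases and guanylate-binding proteins 4 are filled below 0, of the 11 chemokine and antigen processing genes 5 are, and none of the 8 receptors and Janus kinases is filled.

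Markers of other liver cells differed between some of the same groups. The summed signal of the 10 Kupffer cell and macrophage markers on the array (of 12 listed) was 4579 to 5899 in 22-month dwarf livers against 6639 to 10415 in 22-month wild type livers. It was 4862 to 5811 in 6-month dwarf livers against 4500 to 7939 in 6-month wild type livers. The groups were thus apart at 22 months and overlapped at 6 months. Of 8 tested Kupffer cell markers 1 was called lower at 22 months, against 1.56% of all tested probe sets, and 0 to 3 were called without 1 mouse. At that age 6 of the 8 had an unadjusted p under 0.05 in limma and the median log2 difference was -0.78. At 6 months none was called and none had an unadjusted p under 0.05. Marco was at or under the floor on all 14 arrays. The 10 T and NK cell markers on the array (of 13 listed) summed to 923 to 1457 in 6-month dwarf livers against 701 to 888 in 6-month wild type livers. Among them Cd8a was at the floor on all 14 arrays and Cd3d on 13. Of the 2 tested T and NK cell markers none was called at 6 months, with 1 at an unadjusted p under 0.05 in limma. The 7 B cell and plasma cell markers on the array (of 9 listed) summed to 2599 to 3211 in 6-month dwarf livers against 2048 to 2715 in 6-month wild type livers, and 3 of 6 tested were called higher. The 9 neutrophil markers summed to 1510 to 1901 in 6-month dwarf livers against 1140 to 1341 in 6-month wild type livers. Of the 3 tested neutrophil markers none was called at 6 months, with 2 at an unadjusted p under 0.05 in limma. Mmp8 was at or under the floor on 12 of the 14 arrays. The 5 dendritic cell markers on the array (of 8 listed) summed to 1923 to 2498 and the 7 endothelial markers (of 9) to 4123 to 5196 in 6-month dwarf livers, against 1379 to 1851 and 3250 to 4109 in 6-month wild type livers. Of the 5 tested endothelial markers 3 were called higher, and of the 3 tested dendritic cell markers none was called, with 1 at an unadjusted p under 0.05 in limma. The 7 stellate cell and fibroblast markers on the array (of 8 listed) summed to 8702 to 11644 in 6-month dwarf livers against 7045 to 7950 in 6-month wild type livers, with 1 of 5 tested called higher. The 7 hepatocyte markers summed to 153552 to 215543 in 6-month dwarf livers against 112295 to 140023 in 6-month wild type livers, with 3 of the 7 called higher in dwarf mice. Of all tested probe sets 6.37% were called higher in dwarf mice at 6 months. Without 1 mouse the 6-month calls numbered 0 to 3 for the B cell list, 2 to 3 for endothelial, 1 to 3 for stellate cell and 1 to 4 for hepatocyte markers. The median signal of an array was also higher in 6-month dwarf livers (186.85 to 221.05) than in 6-month wild type livers (174.85 to 183.2). Its part in these sums was not tested. The part of these cells in the differences of the interferon-stimulated genes was not tested either.

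The genes whose log2 signal followed each probe set most closely over the 14 arrays were partly of the same family. The points share the 4 groups and the array scaling, so that these correlations are across mice of different groups and describe a common pattern. Igtp was followed by Ifi47 (Pearson r = 0.943, Spearman rho = 0.965) and by the plain set of Iigp1 (r = 0.915, rho = 0.890). The plain set of Iigp1 was followed most closely by Gjb1 (r = 0.964, rho = 0.921), a gap junction protein of hepatocytes, and the shared-probe set by Gjb2 (r = 0.921, rho = 0.873) and Irgm2 (r = 0.915, rho = 0.846). Ifi27 was followed by Fads1, a fatty acid desaturase (r = 0.929, rho = 0.908), and by Ly6e (r = 0.920, rho = 0.934). Usp18 was followed by Rere (r = 0.958, rho = 0.943) and Ngef (r = 0.940, rho = 0.890), neither of them on any of the interferon lists. Ifi35 was followed by Usp24 (r = 0.942, rho = 0.908) and Isg15 by Cyp51, a cholesterol synthesis enzyme (r = 0.907, rho = 0.956). The plain set of Irf7 was followed by Vasp (r = 0.933, rho = 0.916).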

How the data were processed

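Liver RNA of 14 mice was measured on 1 Affymetrix array each. The deposited values are probe set intensities from the authors; MAS5 is the tool named per the submitters' processing notes, and its settings are not given in the sources used here. No probe-level data were used. The labels give animal numbers and no sex, batch or scan date. From the 12488 probe sets, 66 controls were left out, signals under the pooled 25th percentile (54.9) were set to it, log2 was taken, and 7227 probe sets above the pooled median (184.8) on at least 3 arrays were tested. A single model of 4 group means was fitted with limma 3.58.1 in R 4.3.3, with an intensity trend in eBayes, and Benjamini-Hochberg adjustment was applied in each of the 6 comparisons separately. Shares of all tested probe sets refer to the adjusted p or to groups that do not overlap, and none was taken for the unadjusted p. The fit was tested on simulated data. Fold changes rest on floored signals, which understates those of dim genes, and signals of different probe sets are not comparable as levels.

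The members and lists were chosen with earlier results of these data known. Every member was named with all its probe sets. From each pathway list up to 4 genes with the smallest adjusted p past 0.05 in a comparison were named, a gene with several probe sets by its brightest. Ifnar1 and Irf9, which did not pass, were added as examples after their values were seen. For likeness, the 2 genes with the highest Pearson r over the 14 arrays were taken. Alternatives covered quantile and common median scaling, the floor, a pseudocount, the filter, eBayes settings, array weights, fits on only the groups compared, 18S and 3' to 5' covariates and each array left out. Symbols came from the array annotation (10855 probe sets with 1 symbol, 396 with several and 1237 not listed). Promoters came from RefSeq, GRCm38.p6. Analysis used Python 3.11.15, numpy 2.4.6, pandas 2.3.3, scipy 1.17.1 and matplotlib 3.10.9. The number of arrays limits the precision.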

Additional observations from a re-analysis of the deposited data

Results flagged for a closer look

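In 4 probe sets dwarf animal 85 of 6 months stood far from the other 3 dwarf mice of its age. Its signal was 1682.2 for the shared-probe set of Iigp1, 4383.5 for its plain set, 650.1 for Igtp and 1213.3 for Irgm2, each the highest of the group by a gap that took over 0.829 of the group's whole range. Irgm2, like Iigp1 and Igtp, is an immunity-related GTPase. In the same mouse Ifi35 (102.1) was the lowest of the group and Ifi27 (1246.7) lay within its range. Without this mouse the 6-month log2 difference of Igtp, dwarf minus wild type, was -1.69 (limma adjusted p = 5.45e-05).

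Wild type animal 88 of 6 months was far below its group for the shared-probe set of Iigp1, at 1491.2, and it was the highest of the group on the plain set. Wild type animal 82 of 6 months was far above its group for Psmb10, at 982.5, and for Ly6e, at 19482.3. In all 7 of 58 checks of a group of 4 mice met this rule, which chance alone meets in about 1 group in 20. The cause of each was not tested. No member or named pathway gene passed the test for a genotype difference that changed with age in the limma fit over 4 groups.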

How the results depend on the processing

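Over 27 alternatives, the genotype calls of the 9 genes (at 6 months, over both ages and for Ifi27 at 22 months) were kept in each one that tested the probe set. At 6 months 5 to 7 of the 9 probe sets passed without 1 mouse, and over both ages 6 to 7. At 22 months the count of 1 became 3 with array weights, 4 with the groups compared alone, 2 with an 18S covariate and 1 to 4 without 1 mouse (4 without dwarf animal 85 and 2 without dwarf animal 89, both of 6 months). For age in wild type mice the count of 1 became 0 with quantile normalization, a common median, no filter, no intensity trend, an 18S covariate or a 3' to 5' covariate, 3 with array weights, and 0 to 3 without 1 mouse (3 without wild type animal 88). For age in dwarf mice the count of 3 became 1 with no filter or a filter at the 75th percentile, 0 with the 18S or the 3' to 5' covariate, and 0 to 4 without 1 mouse. For the interaction the count of 0 became 1 with a floor at the 40th percentile or an 18S covariate, and 0 to 1 without 1 mouse. The interaction and the both-age average could not be fitted with the groups compared alone.

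Signs turned for results that did not pass. The plain set of Irf7 at 6 months was -0.076 with quantile normalization, -0.12 with a common median, -0.032 with the floor at the 40th percentile and -0.43 to 0.43 without 1 mouse, and for age in dwarf mice it was -0.59 with the 3' to 5' covariate. Without 1 mouse, the shared-probe set of Irf7 at 22 months was -0.40 to 0.075, that of Iigp1 for age in wild type mice -0.036 to 0.31, the Igtp interaction -0.68 to 0.13 and the Isg15 interaction -0.074 to 0.75. The causes were not tested. Over all alternatives, calls of named pathway genes were lost 120 times and kept 694 times.

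Scaling to a common median moved the median log2 difference of all tested probe sets at 6 months to -0.10, against 0.10 before, and for age in dwarf mice to 0.12, against -0.09. Of all calls 18.2% were then higher in dwarf mice at 6 months (47.8% before), 79.3% higher at 22 months in dwarf mice (48.1%), 25.5% higher in dwarf mice over both ages (45.3%) and 89.7% positive in the interaction (70.3%). Of the 9 probe sets, 7 then passed at 6 months, 1 higher and 6 lower. Counts over all tested probe sets were 962 at 6 months (630 with the groups alone), 212 at 22 months (442 with array weights, 127 to 241 without 1 mouse), 180 for age in wild type mice (106 common median, 102 no filter, 90 no trend, 472 weights, 76 groups alone, 9 with 18S, 60 to 457 without 1 mouse), 1193 for age in dwarf mice (108 with 18S, 51 with the 3' to 5' ratio, 521 to 1451 without 1 mouse) and 158 for the interaction (69 no filter, 64 no trend, 57 with the 3' to 5' ratio, 48 to 169 without 1 mouse). No paired analysis was possible because the labels give each mouse its own number. Dim signal limits Ifit1 and Ifit3, which only a fit with no filter tests.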

Other observations

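Among the 3 dwarf mice of 22 months, animal 3 had the highest signal on 9 of the 11 probe sets, and among the 3 wild type mice of 22 months animal 1 did so on 8 of 11. The probe sets of 1 mouse share an array, so that these counts describe single arrays. At 6 months no mouse was the highest of its group on more than 5 of the 11.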
